A study of Mus musculus with 16 samples.

Results

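The nuclear-encoded subunits of the 5 complexes of oxidative phosphorylation were followed, gene by gene and complex by complex, across left ventricles of mice of 4 genotypes. Members were genes whose array symbol begins with Nduf followed by a, b, c, s or v and a digit, with Sdh (subunits a to d), with Uqcr, with Cox4 to Cox8 or with Atp5, together with Cyc1, and assembly factors were left out. A member also needed a probe with a detection p-value under 0.01 on at least 4 of the 16 arrays. The array names 80 such genes with 99 probes, and 71 of them met the detection rule, among 6902 genes measured in all. They comprised 32 genes of complex I of 34 named, 2 of complex II of 3, 7 of complex III of 9, 15 of complex IV of 18 and 15 of complex V of 16. The rule used detection over all arrays, whatever their genotype, and no difference between genotypes. No comparison called any of the 71 members, and the 5 complexes are therefore described by the size of their differences and the precision with which these were measured.

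The hearts were those of male mice carrying the transgene Myh6-TRAF2LC, the transgene Myh6-IκBαΔN or both, and of their littermate controls, which the design text calls wild type. These genotypes are written here as TRAF2LC, IkBaDN, double transgenic and control, with 4 left ventricles each and 1 single-colour Illumina array per heart. TRAF2 is an adapter of TNF receptors, IkBa holds NF-kB in the cytoplasm, and Myh6 is the gene of alpha myosin heavy chain, from which a promoter commonly used to restrict transgenes to cardiomyocytes is taken. The age, the strain and the number of founder lines were not given in the sources used here, nor was it stated whether the 4 hearts of a genotype came from separate litters.

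Oxidative phosphorylation takes place in the inner mitochondrial membrane. Complexes I and II pass electrons from NADH and succinate to ubiquinone, complex III passes them on to cytochrome c, and complex IV passes them to oxygen. Complexes I, III and IV pump protons as they do so, and complex V, the ATP synthase, uses the proton gradient to make ATP. The heart depends on this route for nearly all of its ATP, and cardiac and skeletal muscle use their own isoforms of several complex IV subunits. The mitochondrial genome encodes further subunits of complexes I, III, IV and V, which the members do not include. The RefSeq table of assembly GRCm38.p6 places all 71 members, by gene number, on 19 chromosomes, with the most on chromosome 7, which holds 7.

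Promoters from RefSeq (GRCm38.p6), which run from 250 bases before to 50 bases after an annotated start of a gene, were matched for 58 of the 71 members. Where a gene had several, the first listed was used. Regulators of nuclear genes for mitochondrial proteins include NRF-1, the ETS family protein GABP, YY1 and the oestrogen-related receptors. The letters searched, on both strands, were GCGCATGCG for NRF-1, CCGGAAG for the ETS core of GABP, AAGATGGC for YY1, AAGGTCA for the receptor element and GGGNNTTTC for the first bases of an NF-kB (kB) site. They were chosen with the results of these data known. The ETS core was present in 13 of the 58 member promoters (22.4%), against 9.12% of the 27025 promoters of the table. YY1 letters were present in 15.5% of member promoters and 2.88% of all promoters, with 7 of the 9 matches in complex I, which supplied 29 of the 58 promoters. NRF-1 letters were present in 10.3% and 1.81%, the receptor element in 8.62% and 4.66%, and the kB letters in 6.9% and 4.46%. A match describes these letters and is not a binding site. The promoters below belong to Cox8a and Atp5l, the 2 members with the smallest p over the 4 genotypes, and to Ndufs7, the member with the smallest p for the interaction of the transgenes. The stretch printed for Ndufs7 lies inside the gene as RefSeq places it (80249105 to 80256794), not across its first base. Matched letters are in capitals, the sequence reads 5′ to 3′ along the gene, and Cox8a holds 2 ETS matches, Atp5l 2 ETS matches with 1 NRF-1 and 1 receptor-element match, and Ndufs7 1 YY1 match.
Cox8a, minus strand, chr19:7217567-7217866: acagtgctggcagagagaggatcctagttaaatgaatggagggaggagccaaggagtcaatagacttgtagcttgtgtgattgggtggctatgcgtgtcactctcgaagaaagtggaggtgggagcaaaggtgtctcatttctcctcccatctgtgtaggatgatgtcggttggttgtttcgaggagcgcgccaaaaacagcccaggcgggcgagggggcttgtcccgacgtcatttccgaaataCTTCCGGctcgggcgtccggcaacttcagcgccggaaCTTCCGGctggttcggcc
Atp5l, minus strand, chr9:44920693-44920992: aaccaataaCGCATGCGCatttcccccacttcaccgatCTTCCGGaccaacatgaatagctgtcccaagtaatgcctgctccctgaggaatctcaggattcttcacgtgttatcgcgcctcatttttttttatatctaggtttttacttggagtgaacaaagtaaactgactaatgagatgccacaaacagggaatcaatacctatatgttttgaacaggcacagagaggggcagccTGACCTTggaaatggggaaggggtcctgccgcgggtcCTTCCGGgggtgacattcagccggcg
Ndufs7, plus strand, chr10:80249199-80249498: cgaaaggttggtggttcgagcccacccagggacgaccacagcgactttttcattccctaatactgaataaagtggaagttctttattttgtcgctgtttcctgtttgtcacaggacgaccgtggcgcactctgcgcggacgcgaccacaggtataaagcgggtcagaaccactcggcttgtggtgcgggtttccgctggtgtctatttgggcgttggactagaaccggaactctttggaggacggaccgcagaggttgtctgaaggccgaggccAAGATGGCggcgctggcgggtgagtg

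The mean deposited signal ran from 129 to 375 between arrays, between 7948 and 9397 probes were detected, and the correlation between any 2 arrays lay between 0.953 and 0.990. All 10 measured ventricular cardiomyocyte markers were detected and 0 of them were called in any comparison, while 6 of 6 atrial markers were also detected. Myl1, a myosin light chain of fast skeletal muscle that the atrial list also holds, fell in IkBaDN hearts (log2 change -1.57 ± 0.16 SE, adjusted p = 4.88e-05) and in double transgenic hearts (-1.32 ± 0.16, adjusted p = 2.76e-04). The atrial light chains Myl4 and Myl7 were not called (-0.31 ± 0.11 and -0.19 ± 0.19 in IkBaDN hearts, -0.21 ± 0.11 and -0.32 ± 0.19 in double transgenic hearts). Of the 6 atrial markers, 0 were higher in IkBaDN and 0 in double transgenic hearts, and their summed linear level ran from 71635 to 87673 in TRAF2LC, from 63977 to 77922 in IkBaDN, from 64545 to 82562 in double transgenic and from 82610 to 85151 in control hearts. Acta2, of smooth muscle, rose in double transgenic hearts, where its mean log2 intensity was 14.21 ± 0.11, against 13.21 ± 0.30 in control hearts (SD, n = 4 each, limma adjusted p = 0.0140). It was the only 1 called of 6 measured smooth muscle and pericyte markers in that comparison. Of these 6, 3 were higher in double transgenic hearts, with a median log2 change of 0.08. The part of other cell types in the results below was not tested. In whole tissue, fewer cells of a type and less RNA per cell cannot be told apart.

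The precision of a difference depended on the signal of the probe. Quantile normalization gives the same value to the same rank on every array, so probes near the top of the scale take few distinct values: 4 over the 16 arrays for Atp5b, which encodes the catalytic beta subunit of ATP synthase, and 6 each for Cox6a2 and Ndufs6. The median standard error of a log2 change against control was 0.117 over members and 0.153 over all genes. In each of the 3 comparisons with control, the 95% interval lay within 1.5-fold up and down for 55 of the 71 members. This held for 47 of the 50 members with a mean log2 intensity above 12, for 8 of the 11 between 8 and 12, and for 0 of the 10 below 8. Taken 1 comparison at a time, 80.3%, 83.1% and 78.9% of members had such an interval in TRAF2LC, IkBaDN and double transgenic hearts. Over all genes the shares were 70.8%, 73.2% and 70.7%. The 10 dim members, whose intervals reached past 1.5-fold in at least 1 of these comparisons, were Ndufb2, Ndufb4, Ndufb5, Ndufb9, Ndufb10, Cox4i2, Cox7a2, Cox7b, Atp5a1 and Atp5e.

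**Figure D1:**
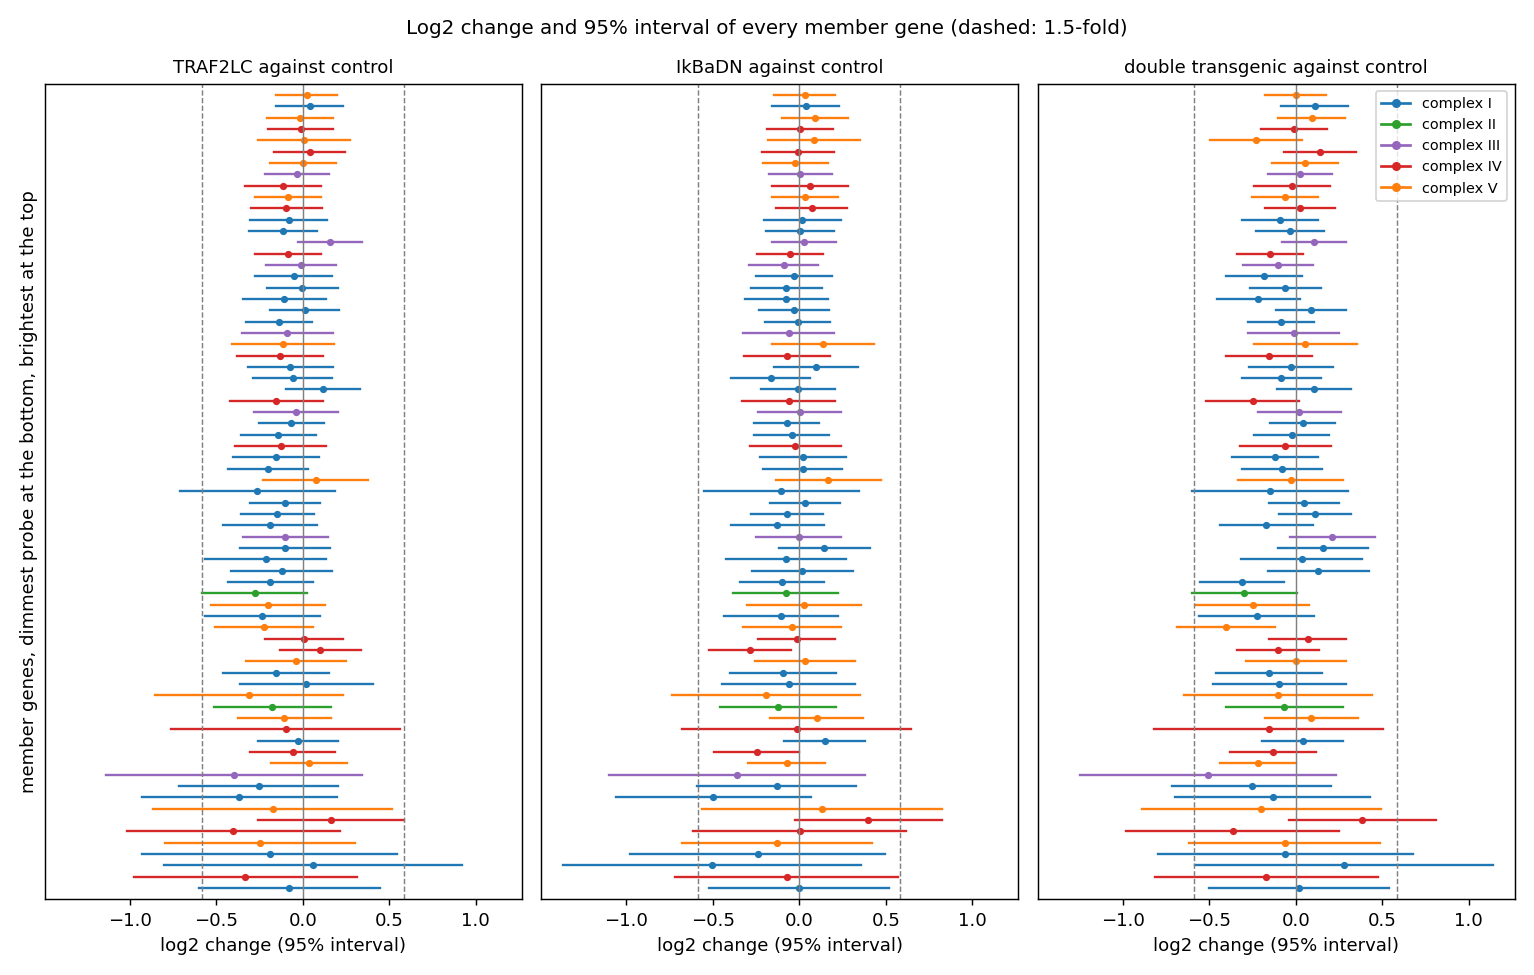
Log2 change of every member in TRAF2LC, IkBaDN and double transgenic hearts against control hearts (x axis), with its 95% interval, ordered from the dimmest probe at the bottom to the brightest at the top and coloured by complex. Dashed lines mark 1.5-fold; the intervals lie between them in all 3 panels for 55 of 71 members and widen towards the bottom.

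Hearts with a transgene were first compared with control hearts. In TRAF2LC against control, 0 of 71 members were called by limma (adjusted p under 0.05), 0 had an unadjusted p under 0.05, and 1.12% of all genes were called. In IkBaDN against control, 0 members were called and 1 had an unadjusted p under 0.05, against 0.493% of all genes called. In double transgenic against control, 0 members were called and 2 had an unadjusted p under 0.05, against 0.869% of all genes called. The share of genes with an unadjusted p under 0.05 was 11.2%, 7.69% and 11.2% over all genes in these comparisons, in the order given. The F test over the 4 genotypes called 0 members, with 2 (2.82%) at an unadjusted p under 0.05. Of all genes it called 3.16%, and 15.5% had an unadjusted p under 0.05.

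The members as a whole lay slightly below control in TRAF2LC hearts. Their median log2 change was -0.10, and 57 of 71 were lower, whereas the median of all genes was -0.01 with 52.4% lower. In IkBaDN hearts the median was -0.02, with 43 lower, and in double transgenic hearts -0.06, with 46 lower. The per-array medians of the members, relative to the control mean, were -0.03, -0.07, -0.00 and -0.19 in TRAF2LC, -0.02, -0.09, 0.05 and -0.03 in IkBaDN, -0.11, 0.02, -0.03 and -0.02 in double transgenic and -0.02, -0.02, 0.06 and 0.00 in control hearts. TRAF2LC replicate 4 was the lowest of the 16 arrays, and the other values of the genotypes overlapped. Without that array the median of the members in TRAF2LC against control was -0.04. The median in double transgenic against control was -0.02 without double transgenic replicate 1 and -0.03 without control replicate 3, and that in IkBaDN against control was -0.04 without IkBaDN replicate 3. TRAF2LC replicate 4 also had the most probes detected (9397). Some other lists were low on it, with medians against the control mean of -0.25 for ventricular cardiomyocyte markers (-0.04 to 0.11 on the other TRAF2LC arrays), -0.27 for assembly factors of the complexes, -0.23 for citric acid cycle genes, -0.53 for atrial and -0.48 for smooth muscle and pericyte markers. Not all lists were low on this array. Medians were -0.0034 for fibroblast, 0.08 for endothelial, 0.21 for adipocyte and 0.41 for skeletal muscle markers. They were -0.125 for electron carriers and ATP export, -0.13 for erythroid markers and -0.09 for regulators of mitochondrial biogenesis. Its macrophage markers had a median of 0.97 above the control mean, against 0.17 to 0.32 on the other TRAF2LC arrays. Of the 8 measured macrophage markers, 8 were higher in TRAF2LC hearts and Cx3cr1 rose (0.87 ± 0.18, adjusted p = 0.0258). Their summed linear level ran from 6146 to 9610 in TRAF2LC and from 5078 to 5826 in control hearts. Adgre1, Fcgr1, Itgam and Ctss did not meet the detection rule.

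**Figure D2:**
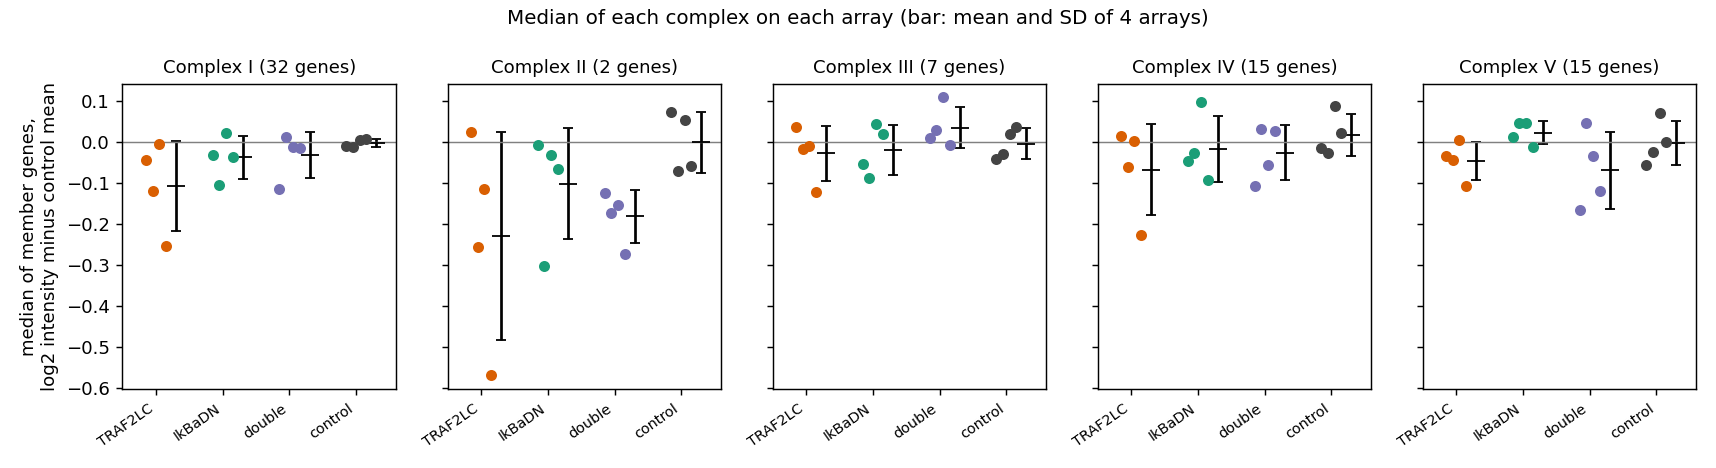
Median over the members of each complex on each array, as log2 intensity minus the control mean of each gene (y axis), by genotype; points are arrays and bars give the mean and SD of 4 arrays. TRAF2LC replicate 4 has the lowest median in each of the 5 complexes apart from complex V, where double transgenic replicates 1 and 4 are lower.

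Complex I, which takes electrons from NADH, supplied 32 of the 71 members. They had a median log2 change of -0.11 in TRAF2LC hearts, with 27 lower, of -0.05 in IkBaDN hearts, with 22 lower, and of -0.06 in double transgenic hearts, with 20 lower. The per-array medians were -0.04, -0.12, -0.01 and -0.25 in TRAF2LC, -0.03, -0.10, 0.02 and -0.04 in IkBaDN, -0.11, 0.01, -0.01 and -0.01 in double transgenic and -0.01, -0.01, 0.01 and 0.01 in control hearts. Without TRAF2LC replicate 4 the median in TRAF2LC hearts was -0.06. That in IkBaDN hearts was -0.02 without IkBaDN replicate 2 and -0.03 without control replicate 2, and that in double transgenic hearts was -0.02 without double transgenic replicate 1 and -0.04 without control replicate 3. The control arrays lay within a narrow range, and at least 1 array of each transgenic genotype lay inside or above it. Control arrays form the mean they are set against, which in itself narrows their range. Ndufc2, a membrane-arm subunit and the complex I member with the smallest p over the 4 genotypes, had 12.78, 12.69, 12.53 and 12.55 in TRAF2LC, 12.79, 12.76, 12.62 and 12.74 in IkBaDN, 12.20, 12.74, 12.62 and 12.51 in double transgenic and 12.82, 12.72, 12.88 and 12.89 in control hearts. The highest double transgenic array lay above the lowest control array, so the groups overlapped. The log2 change in double transgenic hearts was -0.31 ± 0.12 (unadjusted p = 0.0161, adjusted p = 0.324), with a 95% interval from -0.55 to -0.07.

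Ndufs7, an iron-sulfur subunit of the arm that takes electrons from NADH to ubiquinone, had 13.12, 13.00, 13.13 and 12.80 in TRAF2LC, 13.07, 12.97, 13.19 and 13.12 in IkBaDN, 13.32, 13.24, 13.24 and 13.28 in double transgenic and 13.15, 13.12, 13.09 and 13.29 in control hearts. All 4 double transgenic arrays lay above all 4 TRAF2LC arrays. The log2 change in double transgenic against TRAF2LC hearts was 0.26 ± 0.10 (unadjusted p = 0.0184, adjusted p = 0.202). Its interaction, the difference between the effect of 1 transgene with and without the other, was 0.33 ± 0.14 (unadjusted p = 0.0313, adjusted p = 0.776). Of the core subunits that carry the flavin and the iron-sulfur clusters, Ndufv1 differed from control by -0.06 ± 0.11 in TRAF2LC hearts, by -0.17 ± 0.11 in IkBaDN hearts and by -0.08 ± 0.11 in double transgenic hearts. Ndufs8 differed by -0.12 ± 0.14, 0.02 ± 0.14 and 0.13 ± 0.14 in the same comparisons. Ndufs6, an accessory subunit, had a mean of 15.08 ± 0.11 in TRAF2LC, 15.08 ± 0.10 in IkBaDN, 15.15 ± 0.04 in double transgenic and 15.04 ± 0.05 in control hearts (SD, n = 4 each). The 95% interval of its change in double transgenic hearts ran from -0.08 to 0.30.

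The lowest and highest changes of complex I were not called either. In TRAF2LC hearts Ndufb10 was the lowest (-0.37 ± 0.27, adjusted p = 0.704) and Ndufa9 the highest (0.12 ± 0.10). The largest differences in IkBaDN were -0.50 ± 0.41 for Ndufb9, detected on 1 IkBaDN and 3 control arrays, and 0.15 ± 0.11 for Ndufb7. In double transgenic hearts Ndufb9 was also the highest (0.28 ± 0.41). Its double transgenic values were 5.66, 6.54, 6.57 and 6.25 and its IkBaDN values 4.92, 4.87, 6.74 and 5.36, against 5.12, 5.94, 6.65 and 6.20 in control hearts, a spread wider than the differences. These 4 genes encode accessory subunits. Ndufs5-ps carries the symbol of a pseudogene and cannot be separated from Ndufs5 by its name alone, and its change in double transgenic against TRAF2LC hearts was 0.26 ± 0.12 (unadjusted p = 0.0513, adjusted p = 0.325). Ndufb4 was detected on 4 of 16 arrays, 0 of them TRAF2LC and 1 control, so no change is given for TRAF2LC hearts. Ndufa4, long counted with complex I and now placed in complex IV, differed by -0.05 ± 0.10, -0.03 ± 0.10 and -0.18 ± 0.10 in TRAF2LC, IkBaDN and double transgenic hearts. Ndufs1 and Ndufb11 were detected on 0 arrays.

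Complex II, the succinate dehydrogenase that also belongs to the citric acid cycle, was represented by Sdhb, its iron-sulfur subunit, and Sdhc, a membrane anchor. Sdhc had 12.82, 12.34, 12.47 and 12.28 in TRAF2LC, 12.90, 12.43, 12.60 and 12.79 in IkBaDN, 12.61, 12.18, 12.49 and 12.56 in double transgenic and 12.96, 12.70, 12.61 and 12.75 in control hearts. The 4 double transgenic arrays lay below the 4 control arrays, the highest of them only just, and 1 TRAF2LC and 2 IkBaDN arrays lay inside the control range. Its log2 change was -0.28 ± 0.14 in TRAF2LC (adjusted p = 0.516), -0.08 ± 0.14 in IkBaDN (adjusted p = 0.962) and -0.30 ± 0.14 in double transgenic hearts (adjusted p = 0.479). Sdhb differed by -0.18 ± 0.16, -0.12 ± 0.16 and -0.06 ± 0.16 in the same comparisons. Complex II had the lowest medians of the 5 complexes against control in all 3 comparisons (-0.23, -0.10 and -0.18), each over only 2 genes. Its median was -0.12 without TRAF2LC replicate 4 in TRAF2LC hearts and -0.03 without IkBaDN replicate 2 in IkBaDN hearts. Sdhd, the other anchor, was detected on 1 array and did not enter.

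Complex III had the medians nearest to 0 in all 3 comparisons with control when all arrays were used. Over its 7 measured members the median log2 change was -0.04 for TRAF2LC, -0.0036 for IkBaDN and 0.02 for double transgenic hearts, with 6, 4 and 3 of them lower. Leaving out 1 array, the median ran from -0.10 (without TRAF2LC replicate 1) to -0.02 (without TRAF2LC replicate 4) for TRAF2LC, from -0.04 to -0.0012 for IkBaDN and from -0.0035 (without double transgenic replicate 3) to 0.05 (without double transgenic replicate 2) for double transgenic hearts. Cyc1, cytochrome c1, which hands electrons to cytochrome c, had 12.72, 12.81, 12.82 and 12.53 in TRAF2LC, 12.63, 13.03, 12.91 and 12.71 in IkBaDN, 13.24, 12.99, 13.04 and 12.87 in double transgenic and 12.73, 12.78, 12.89 and 12.90 in control hearts. The 4 double transgenic arrays lay above the 4 TRAF2LC arrays, and 1 of them lay within the control range. The log2 change of Cyc1 was 0.31 ± 0.12 in double transgenic against TRAF2LC (unadjusted p = 0.0155, adjusted p = 0.181) and 0.21 ± 0.12 in double transgenic against control hearts (adjusted p = 0.536). Uqcrc2, a core subunit on the matrix side, had the highest change in TRAF2LC hearts (0.16 ± 0.09, adjusted p = 0.573), with means of 14.36 ± 0.06 in TRAF2LC and 14.21 ± 0.07 in control hearts (SD, n = 4 each). Uqcrb, the ubiquinone-binding protein, had the lowest changes of the complex in all 3 comparisons, -0.40, -0.36 and -0.51, each ± 0.35. Uqcrb is also a gene that differed with the position of the array in the signal table, as described further on. The Rieske protein Uqcrfs1 and Uqcrq were detected on 0 arrays.

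Complex IV, cytochrome c oxidase, had median log2 changes of -0.10 for TRAF2LC, -0.02 for IkBaDN and -0.10 for double transgenic hearts over 15 members, with 11, 10 and 11 lower. The median for TRAF2LC was -0.05 without TRAF2LC replicate 4. For IkBaDN it ran from -0.08 without IkBaDN replicate 3 to 0.01 without control replicate 3. For double transgenic hearts it was 0.01 without double transgenic replicate 1, -0.05 when control replicate 3 was left out and -0.06 when control replicate 4 was. Cox8a, the broadly expressed isoform of the smallest subunit, had the smallest p of all members in the limma F test (unadjusted p = 0.0194, adjusted p = 0.221). Its log2 intensity was 12.47, 12.39, 12.55 and 12.43 in TRAF2LC, 12.16, 11.82, 12.15 and 12.16 in IkBaDN, 12.25, 12.27, 12.04 and 12.46 in double transgenic and 12.35, 12.33, 12.26 and 12.49 in control hearts. The 4 IkBaDN arrays lay below the 4 control arrays, and IkBaDN replicate 2 lay furthest below. The log2 change in IkBaDN hearts was -0.29 ± 0.11 (unadjusted p = 0.0208, adjusted p = 0.487), with a 95% interval from -0.52 to -0.05. IkBaDN replicate 2 also had the lowest mean signal of the 16 arrays, 129.

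Muscle and broadly expressed isoforms of complex IV were set beside each other by their changes. The muscle isoforms were Cox6a2, Cox7a1 and Cox8b. Cox6a2 differed from control by -0.01 ± 0.09, 0.00 ± 0.09 and -0.01 ± 0.09 in TRAF2LC, IkBaDN and double transgenic hearts, and its 95% intervals spanned -0.20 to 0.19. Cox7a1 differed by -0.11 ± 0.10, 0.06 ± 0.10 and -0.02 ± 0.10, and Cox8b by -0.15 ± 0.13, -0.06 ± 0.13 and -0.25 ± 0.13. The broadly expressed Cox6a1 differed by 0.01 ± 0.11, -0.02 ± 0.11 and 0.07 ± 0.11, within intervals from -0.24 to 0.29. A second, dimmer probe of Cox6a1 differed by -0.01, -0.18 and -0.02 in the same comparisons (F test over the 4 genotypes, adjusted p = 0.734). Cox7a2, detected on 12 arrays, differed by -0.33 ± 0.31, -0.07 ± 0.31 and -0.17 ± 0.31. Cox4i1 differed by -0.13 ± 0.12, -0.07 ± 0.12 and -0.15 ± 0.12. Cox4i2, its oxygen-sensitive isoform, which is found mainly in lung, had 6.31, 6.55, 6.71 and 7.19 in TRAF2LC, 6.46, 7.36, 7.11 and 6.78 in IkBaDN, 7.12, 6.70, 6.84 and 6.99 in double transgenic and 6.43, 6.25, 6.79 and 6.64 in control hearts. Its changes of 0.40 ± 0.20 in IkBaDN (adjusted p = 0.678) and 0.39 ± 0.20 in double transgenic hearts (adjusted p = 0.514) were the highest of any member in those comparisons, on a dim probe. Cox7a2l, a factor of respiratory supercomplexes, differed by -0.25 ± 0.12 in IkBaDN hearts (adjusted p = 0.650). The testis isoforms Cox7b2 and Cox8c were detected on 0 arrays and Cox6b2 on 3.

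**Figure D3:**
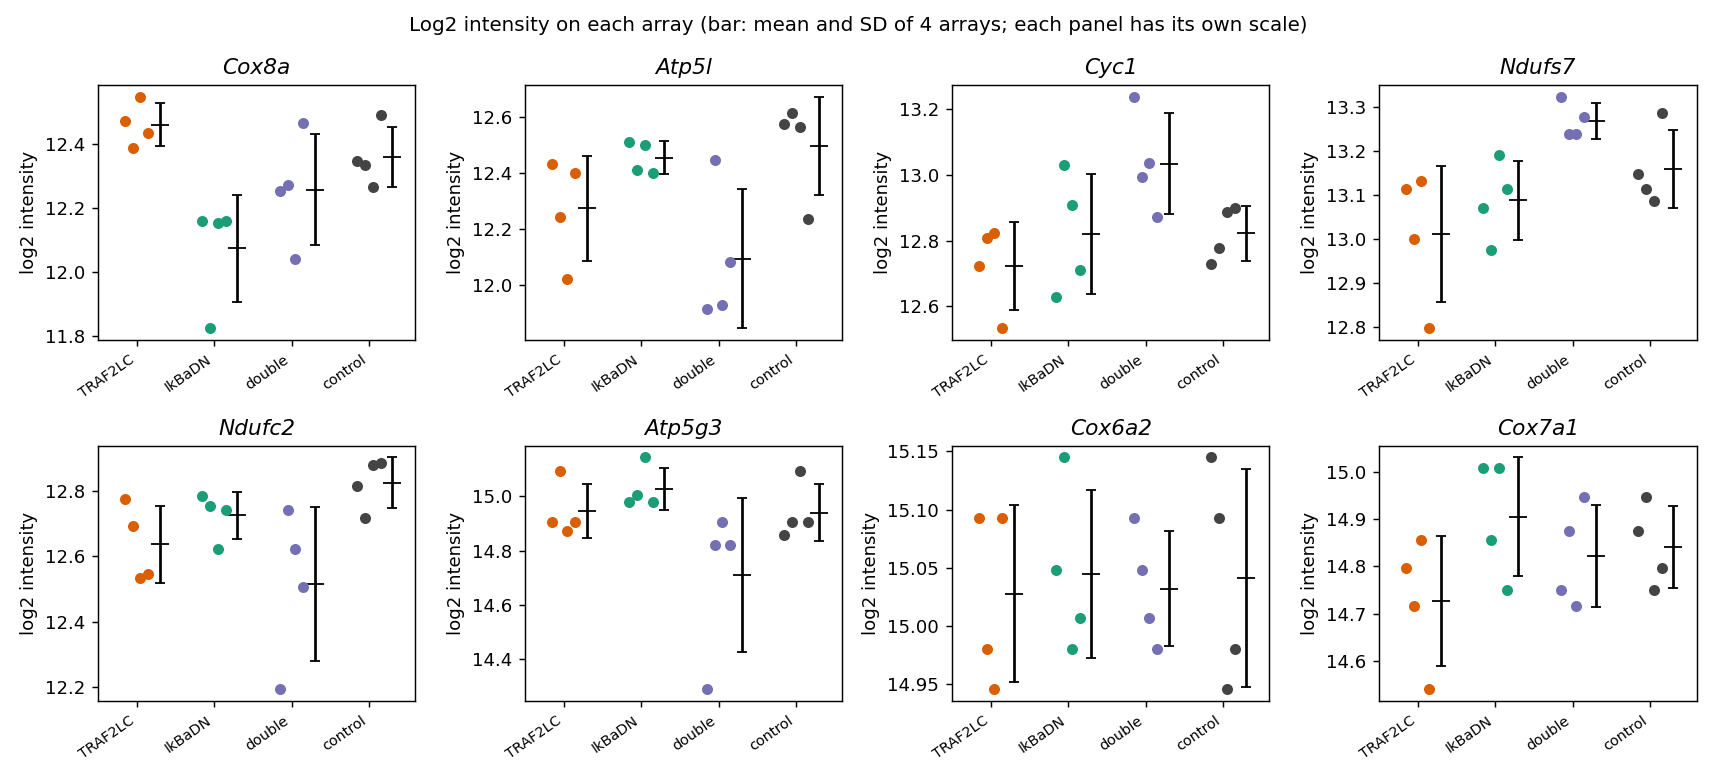
Log2 intensity (y axis, own scale per panel) of 8 members on each array by genotype, with the mean and SD of 4 arrays beside the points. The 4 IkBaDN values of Cox8a lie below its control values, the double transgenic values of Cyc1 and Ndufs7 lie above the TRAF2LC values, and the muscle isoforms Cox6a2 and Cox7a1 overlap in all genotypes.

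Complex V had median log2 changes of -0.09 for TRAF2LC, 0.03 for IkBaDN and -0.06 for double transgenic hearts over 15 members, with 11, 5 and 10 lower. The median for TRAF2LC was 0.01 without TRAF2LC replicate 4 and -0.05 without control replicate 4. For IkBaDN it ran from 0.02 without control replicate 2 to 0.05 without control replicate 3. For double transgenic hearts it was -0.01 without double transgenic replicate 1, -0.03 without control replicate 3 and -0.10 without double transgenic replicate 2. Atp5l, subunit g of the membrane part of the synthase, had the lowest change of the complex in double transgenic hearts. Its log2 intensity was 12.43, 12.24, 12.02 and 12.40 in TRAF2LC, 12.51, 12.41, 12.50 and 12.40 in IkBaDN, 11.92, 12.45, 11.93 and 12.09 in double transgenic and 12.58, 12.61, 12.57 and 12.24 in control hearts. Of the double transgenic arrays, 3 lay below all control arrays and replicate 2 lay within the control range, and control replicate 4 lay apart from the other 3. The log2 change of Atp5l was -0.40 ± 0.13 against control (unadjusted p = 0.00786, adjusted p = 0.241) and -0.36 ± 0.13 against IkBaDN hearts (unadjusted p = 0.0153, adjusted p = 0.847). Its p over the 4 genotypes was 0.0295 (adjusted p = 0.268).

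The c subunit of the membrane rotor is encoded by 3 genes whose mature proteins are the same. Atp5g1 differed from control by -0.02 ± 0.09, 0.09 ± 0.09 and 0.09 ± 0.09 in TRAF2LC, IkBaDN and double transgenic hearts. Atp5g2 differed by -0.11 ± 0.13, 0.10 ± 0.13 and 0.09 ± 0.13. Atp5g3 had 14.91, 15.09, 14.87 and 14.91 in TRAF2LC, 14.98, 15.01, 15.15 and 14.98 in IkBaDN, 14.29, 14.82, 14.91 and 14.82 in double transgenic and 14.86, 14.91, 15.09 and 14.91 in control hearts. Double transgenic replicate 1 lay far below the other 15 arrays. The log2 change of Atp5g3 was -0.23 ± 0.13 in double transgenic against control (adjusted p = 0.534) and -0.32 ± 0.13 against IkBaDN hearts (unadjusted p = 0.0217, adjusted p = 0.847).

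In the catalytic head, Atp5b had means of 15.51 ± 0.05 in TRAF2LC, 15.52 ± 0.03 in IkBaDN, 15.48 ± 0.06 in double transgenic and 15.48 ± 0.06 in control hearts (SD, n = 4 each), at the top of the scale, where ranks set the values. Atp5o, the stalk protein that confers oligomycin sensitivity, was lower in double transgenic than in TRAF2LC hearts by a log2 change of -0.25 ± 0.10 (unadjusted p = 0.0271, adjusted p = 0.241). Its values were 8.70, 8.87, 8.62 and 8.59 in double transgenic and 9.02, 9.05, 8.82 and 8.90 in TRAF2LC hearts, with an overlap of 1 array. Atp5h, a stalk subunit, had the lowest change of the complex in TRAF2LC hearts (-0.31 ± 0.26) and in IkBaDN hearts (-0.19 ± 0.26), and Atp5mpl, a small membrane subunit, had the highest (0.07 ± 0.14 and 0.17 ± 0.14). TRAF2LC replicate 4 was the lowest array for Atp5h, at 10.16. Atp5k was detected on 0 arrays.

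**Figure D4:**
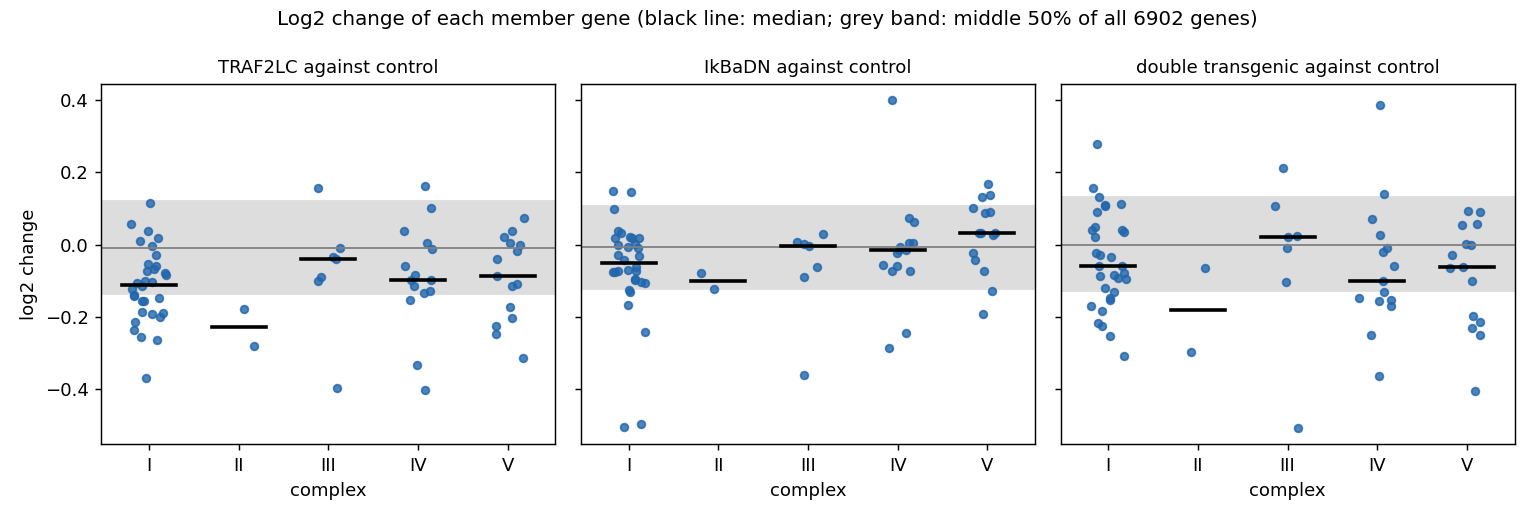
Log2 change of each member (points) by complex in 3 comparisons with control, with the median of each complex as a black line; the grey line and band give the median and middle 50% of all 6902 genes. In TRAF2LC against control 57 of 71 members lie below 0, and most points of every complex lie within or near the band.

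Double transgenic hearts were then compared with hearts of each single transgene. Against TRAF2LC hearts, 0 of 71 members were called and 3 had an unadjusted p under 0.05 (Ndufs7, Cyc1 and Atp5o), while 3.04% of all genes were called and 16.7% had such a p. The median of the members was 0.05, with 46 higher and 25 lower, against 0.01 over all genes. Complex I had 24 of 32 members higher (median 0.07), and the medians of complexes II to V lay between 0.03 and 0.06. Both comparisons of TRAF2LC hearts share the same 4 TRAF2LC arrays, and without TRAF2LC replicate 4 the median of the members against TRAF2LC was -0.03, with the opposite sign, complex I stood at 0.03 and complexes II to V between -0.07 and -0.01. In the same comparison, 0 of 8 macrophage markers were higher in double transgenic hearts (median -0.41, Cx3cr1 called lower), and 6 of 6 smooth muscle and pericyte markers were higher (median 0.34, Acta2 called higher). The summed level of the macrophage markers ran from 5207 to 6070 in double transgenic and from 6146 to 9610 in TRAF2LC hearts, and that of the smooth muscle and pericyte markers from 20952 to 24276 and from 10215 to 14125. Acta2 alone made up most of the smooth muscle and pericyte sum in double transgenic hearts. The part of these cell types in the members' difference was not tested. Against IkBaDN hearts, 0 members were called and 2 had an unadjusted p under 0.05 (Atp5l and Atp5g3). Of all genes, 0.0145%, 1 gene, were called and 5.80% had such a p. The median of the members there was -0.03, with 41 of 71 lower, and complex V had 11 of 15 lower (median -0.08). Without IkBaDN replicate 3 the median of the members was 0.01. The interaction called 0 members, with Ndufs7 alone at an unadjusted p under 0.05. Of all genes it called 0.0145%, and 6.42% had an unadjusted p under 0.05.

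Another scale of the arrays moved the median of all genes, and in some comparisons the members moved relative to it. With 1 scaling factor per array in place of quantile normalization, the median of all genes was -0.23 in IkBaDN against control, 0.13 in TRAF2LC against control, 0.11 in double transgenic against control and 0.35 in double transgenic against IkBaDN. Relative to that median, the members lay at -0.21 for TRAF2LC, -0.02 for IkBaDN and -0.14 for double transgenic hearts, against -0.09, -0.02 and -0.06 with quantile normalization. In double transgenic against IkBaDN they lay at -0.11, against -0.04 with quantile normalization. The call of 0 members was the same in both.

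The position of an array in the signal table separated more genes than genotype did. This was so for the members and for all genes, of which the F test over the 4 genotypes called 218. The first 8 columns of the signal table hold 2 arrays of each genotype and the last 8 the other 2. Between these sets, compared after the data had been seen, 12 of 71 members (16.9%) were called, against 12% of all genes (831 of 6902). Each set holds 8 arrays, against 4 for a genotype. Of the 12 members, 9 were lower and 3 higher in the first 8. Atp5a1, the alpha subunit of the catalytic head, differed by -0.85 ± 0.10 (adjusted p = 1.42e-04), with 6.72 to 7.30 in the first 8 and 7.62 to 8.21 in the last 8 columns. Cox6c differed by -0.81 ± 0.10 (adjusted p = 1.44e-04) and ran from 9.55 to 10.12 and from 10.51 to 11.08 in the same sets. Ndufb4, Cox7b, Cox7a2, Ndufb5, Ndufb2, Ndufb9 and Uqcrb were also lower in the first 8, and Ndufa6 (0.51 ± 0.08), Ndufb3 (0.40 ± 0.08) and Atp5pb (0.27 ± 0.09) were higher. The sources used here do not say what distinguishes the sets. The mean deposited signal of the arrays ran from 282 to 375 in the first 8 and from 129 to 280 in the last 8 columns. The members lower in the first 8 had mean log2 intensities from 5.30 (Ndufb4) to 10.3 (Cox6c). Those higher ran from 11.4 (Ndufb3) to 13.3 (Ndufa6). The part of array signal and probe brightness in these differences was not tested. The muscle isoform Cox6a2 was not among the called members.

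Probes of 1 gene did not follow the column sets alike. Of the 71 members, 11 had at least 2 tested probes. Ndufs4, an accessory subunit of complex I, had 4: its brightest probe differed between the first and last 8 columns by -0.04 ± 0.09 (adjusted p = 0.822), while its 3 dimmer probes differed by -0.67 ± 0.13, -0.78 ± 0.13 and -0.73 ± 0.16 (adjusted p = 0.00374, 0.00219 and 0.00758). Ndufa5 showed the same disagreement, with 0.03 ± 0.08 for its brighter and -0.76 ± 0.13 for its dimmer probe (adjusted p = 0.842 and 0.00195). For Ndufa8 the dimmer probe was higher in the first 8 columns by 0.31 ± 0.07 (adjusted p = 0.0110) and the brighter by 0.03 ± 0.07. The 2 probes of Uqcr10 differed by -0.03 ± 0.06 and 0.07 ± 0.06. The F test over the 4 genotypes called none of the tested probes of these 11 genes (lowest adjusted p = 0.384).

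**Figure D5:**
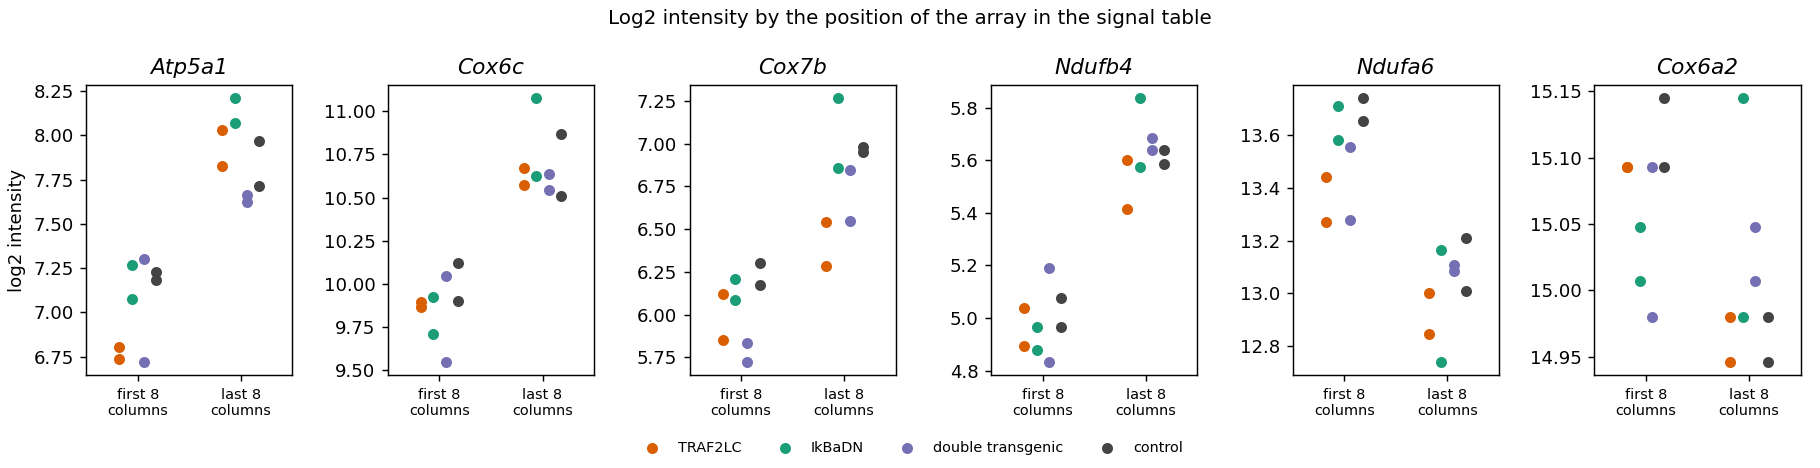
Log2 intensity of 6 members (y axis, own scale per panel) on arrays of the first and the last 8 columns of the signal table, coloured by genotype. Atp5a1, Cox6c and Ndufb4 separate the sets with no overlap and Ndufa6 lies higher in the first 8, while the sets overlap for Cox6a2.

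With the column set as a term in the fit, 0 members were called in any comparison of genotypes. Within the first 8 columns the median of the members in TRAF2LC against control was -0.12, with 57 of 71 lower, and within the last 8 it was -0.08, with 50 lower. In double transgenic against control hearts the medians were -0.06 and -0.04, and in IkBaDN against control -0.01 and -0.02. The sample descriptions also carry a number followed by P, which falls into 3 runs (535 to 538, 617 to 624 and 663 to 675) whose meaning the sources do not state. With that run as a term, Atp5a1, singled out after its values were seen, was called in double transgenic against control hearts (-0.78, adjusted p = 0.0340) and over the 4 genotypes (adjusted p = 0.0130), and no other member was called. Without that term its change was -0.20 ± 0.33 (adjusted p = 0.896). In the run 535 to 538, Atp5a1 stood at 6.72 on 1 double transgenic and 7.71 on 1 control array. In the run 663 to 675 it stood at 7.66, 7.62 and 7.30 on 3 double transgenic and 7.97 on 1 control array. The runs were not balanced over the column sets: the double transgenic arrays at 6.72 and 7.30 were the only ones of their runs in the first 8 columns, and the run 617 to 624 held no double transgenic array. With the run and the column set both as terms, added after the data had been seen, Atp5a1 was not called (-0.51 in double transgenic against control hearts, adjusted p over the 4 genotypes 0.154), and 0 members were called in any comparison.

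Genes around the complexes gave few calls. Of 30 measured assembly factors 0 were called in any comparison, with medians against control of -0.02 for TRAF2LC, -0.06 for IkBaDN and -0.06 for double transgenic hearts. Among 18 measured electron carriers and genes of ATP export, Atpif1, the inhibitor of ATP synthase, was the only one called in a comparison of 2 genotypes. It fell in double transgenic against TRAF2LC hearts by a log2 change of -0.40 ± 0.09 (adjusted p = 0.0223), with means of 13.28 ± 0.04 in double transgenic and 13.68 ± 0.12 in TRAF2LC hearts (SD, n = 4 each). In control hearts it stood at 13.41 ± 0.07, and TRAF2LC against control was 0.27 ± 0.09 (adjusted p = 0.262). Of 12 measured regulators of mitochondrial biogenesis and of 12 citric acid cycle genes, 0 each were called. Ppargc1b, a coactivator of mitochondrial genes, had the smallest p of the regulators over the 4 genotypes (adjusted p = 0.108), with a log2 change of 0.47 ± 0.13 in double transgenic against TRAF2LC hearts (adjusted p = 0.0551). Suclg2, a subunit of succinyl-CoA ligase, had the smallest p of the cycle (adjusted p = 0.250). These lists were chosen with earlier results of these data known.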

How the data were processed

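Total RNA of 16 left ventricles was hybridized to single-colour Illumina arrays, 1 per heart. The authors deposited 1 intensity per probe and array for 25697 probes, already background-subtracted, since 14378 lie below 0 on at least 1 array. The authors also deposited a detection p-value for each intensity. A second deposited table holds these intensities multiplied by 1 factor per array, to a mean of 276 (largest departure 0.0161), and served as an alternative. BeadStudio and GenomeStudio are named in the submitters' processing notes, without versions or steps.

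Intensities were corrected with nec of limma 3.58.1 (R 4.3.3, offset 16), which estimates the background from the detection p-values, quantile normalized across arrays and converted to log2. Tested were probes detected (detection p-value under 0.01) on at least 4 of 16 arrays (9449 probes, 517 unnamed, 6902 genes), and a gene is given by its brightest probe. A single limma model with a mean per genotype was fitted to all arrays, with variances moderated by eBayes (residual degrees of freedom 12, prior 4.53). Genes with a Benjamini-Hochberg adjusted two-sided p under 0.05, over all probes of a comparison, are called. Changes are differences of mean log2 intensity with limma standard errors, which pool the 4 genotypes. The fit was tested on simulated data. Groups follow the genotype label. Nothing in the sources used here says that the hearts of a genotype were independent in litter or day, so p-values measure the spread between these hearts. Arrays give no counting depth, and their number limits the precision. Levels of different genes were not compared. Signal served to choose a probe and to describe precision and the column sets.

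The members, lists and promoter motifs were chosen with earlier results of these data known. Named members are, per complex, the 3 with the smallest F-test p, the highest and lowest change against control, the paralogous isoforms of complexes IV and V, and members near the detection limit. From other lists, called genes or the gene with the smallest F-test p are named. Atp5a1, and members named for their column sets or second probes, were added after their values were seen, as was the comparison of columns, and other subunits are named to give their role. Alternatives were another normalization, background correction, offset, filter, probe rule, the 2 genotypes alone, array weights, the replicate number, the P-number run and the column set as blocks, singly and together (the column set, alone or with the run, was added after the data were seen), and each array left out in turn.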

Additional observations from a re-analysis of the deposited data

Results flagged for a closer look

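Over the 33 measured named members, the medians of the 5 complexes and the median of all members, 156 groups of 4 arrays were examined for a single array far from the other 3, and 9 stood out, where chance gives about 1 in 20. For Atp5g3 this was TRAF2LC replicate 2 (15.09, others 14.87 to 14.91), IkBaDN replicate 3 (15.15, others 14.98 to 15.01) and double transgenic replicate 1 (14.29, others 14.82 to 14.91). For Cox6b1 IkBaDN replicate 2 stood at 14.68, below 3 arrays at 14.91, and for Cox8a the same array stood at 11.82, below 12.15 to 12.16. Among control arrays, Atp5l stood at 12.24 on replicate 4 (others 12.57 to 12.61) and Ndufs5-ps at 12.51 on replicate 1 (others 12.79 to 12.82). Sdhb stood at 11.16 on control replicate 3 (others 10.80 to 10.85) and Uqcrc2 at 14.31 on control replicate 1 (others 14.16 to 14.18).

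Among the named members, 3 had all 4 arrays with a transgene on one side of the mean without it in the absence of the other transgene, and all 4 on the opposite side in its presence. The named members, 33 of them measured, were partly chosen by the smallest F-test p or by extreme changes in these data. The share of all genes that meet the same condition was not counted. Ndufs7 differed by 0.18 in double transgenic against IkBaDN and by -0.15 in TRAF2LC against control hearts. Cyc1 differed by 0.22 and -0.10 in the same comparisons. It met the condition only barely, since TRAF2LC replicate 3 stood at 12.823 and the control mean at 12.823. Atp5g3 differed by -0.24 in double transgenic against TRAF2LC and by 0.09 in IkBaDN against control hearts. The interaction in the limma fit had adjusted p = 0.776 for Ndufs7, 0.839 for Cyc1 and 0.840 for Atp5g3, so the difference of effects was not called. Ndufb10, whose arrays were not so separated, differed by 0.36 in double transgenic against IkBaDN and by -0.37 in TRAF2LC against control hearts, with an interaction at adjusted p = 0.835.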

How the results depend on the processing

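The count of 0 called members held in all 6 comparisons and in the F test under every alternative except the P-number run as a block, which called 1 member in double transgenic against control and 1 in the F test, Atp5a1 both times. Median log2 changes of the complexes moved further. Median scaling gave, in IkBaDN against control, -0.283 for complex I, -0.359 for II, -0.251 for III, -0.251 for IV, -0.184 for V and -0.251 for all members. In double transgenic against IkBaDN it gave 0.268, 0.268, 0.243, 0.183, 0.125 and 0.243. Under that scale the median of all genes stood at -0.234 and 0.353 in these comparisons. Relative to the 0.353, complexes I to V lay at -0.085, -0.085, -0.109, -0.170 and -0.227, and all members at -0.109. In double transgenic against control median scaling gave -0.0179 for complex I and -0.0912 for II. The authors' scaled values gave -0.117 for complex III in TRAF2LC against control, -0.0633 for complex III in double transgenic against control, and -0.0446, -0.136 and -0.194 for complexes III, IV and V in double transgenic against IkBaDN. Array weights gave -0.018 for complex V in TRAF2LC against control and -0.0271 for complex IV in double transgenic against control. With no filter, which adds Sdhd, complex II stood at -0.0908 in double transgenic against control and 0.0581 against IkBaDN. The P-number block gave -0.165 for complex V in double transgenic against IkBaDN. The P-number run and column set together gave -0.15 for complex V in double transgenic against control and -0.0667 for complex I in double transgenic against IkBaDN.

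Leaving out 1 array at a time, medians in TRAF2LC against control ran from -0.10 to -0.017 for complex III, -0.101 to 0.00562 for complex V and -0.118 to -0.0366 for all members. In double transgenic against control complex IV ran from -0.109 to 0.00641. In double transgenic against TRAF2LC the ranges were -0.0365 to 0.0757 for complex III, -0.0644 to 0.0672 for V and -0.0311 to 0.0776 for all members, and against IkBaDN -0.0114 to 0.0835 for complex III. TRAF2LC replicates 1 and 4 and double transgenic replicate 1 are the arrays whose loss moved a median by more than its spread between arrays. The causes were not tested.

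The replicate numbers did not meet the condition for pairing, that every correlation between same-numbered arrays of different genotypes exceed 0.1: the 24 ran from -0.29 to 0.41, with 16 over 0.1 and 13 the highest of their array. For numbers 1 and 3 all 12 lay between 0.14 and 0.41 and 11 were the highest; for 2 and 4, 4 of 12 were over 0.1. All arrays numbered 1 lie in the first 8 and all numbered 3 in the last 8 columns, while numbers 2 and 4 are split. With the replicate block 0 members were called and the median of the members in TRAF2LC against control was -0.10. Over all genes, calls in TRAF2LC against control ran from 24 to 89, in IkBaDN against control from 13 to 54, in double transgenic against control from 12 to 132 and in double transgenic against TRAF2LC from 76 to 293, against 77, 34, 60 and 210 as reported. Intervals of the 10 dimmest members reached past 1.5-fold in at least 1 comparison with control.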
